A study of Caenorhabditis elegans with 4 samples.

Results

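EPC-1 peaks on chromosome III of Caenorhabditis elegans were taken from 2 lists of binding sites, made by chromatin immunoprecipitation and sequencing (ChIP-seq) in whole L3 larvae. Every row of a list that named chromosome III was kept, which gave 698 of 3455 peaks in replicate 1 and 579 of 2833 peaks in replicate 2. All animals were of the wild-type laboratory strain N2, and the tissue was the whole body, so binding in different cell types is not resolved. The samples were 2 immunoprecipitations with the antibody SDQ0820 against EPC-1, and 2 input DNA samples, which were not analysed here. The titles name EGS, an amine-reactive crosslinker, and the treatment protocol names fixation with EGS and formaldehyde. The growth protocol names formaldehyde alone. Both immunoprecipitations were of the same stage and strain, with no second condition. Values are therefore set side by side for the replicates and for stretches of the genome, and no test over samples was possible. The labels do not say whether separate cultures were used for the replicates. Read depth is unknown.

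EPC-1 is related to the fly protein Enhancer of Polycomb and belongs to the TIP60 (NuA4) family of complexes, which acetylate histones. In yeast the related subunit holds the catalytic enzyme of the complex on the nucleosome, so that histone tails become acetylated, a state found at the promoters of active genes. Chromosome III is an autosome without a single centromere, since worm chromosomes attach to the spindle along their length. Worm autosomes have a gene-rich centre and arms with more repeats and more recombination. Coordinates are those of the WormBase release WS190 and count from the left end, and no gene is assigned to a peak.

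Chromosome III was bound more densely than the rest of the genome. It held 20.2% of the peaks of replicate 1 and 20.4% of those of replicate 2, on 13.8% of the length that peaks spanned. The lowest start and the highest end on III, over both lists, were 14049 and 13771974, a span of 13.8 Mb. On III there were 50.7 peaks per Mb in replicate 1 and 42.1 in replicate 2, a mean of 46.4 ± 6.12 (SD, n = 2), against 32.0 and 26.2 on the other 5 chromosomes together. Chromosome I was nearest to it, at 50.01 and 42.5 peaks per Mb, and was slightly the denser of the 2 chromosomes in replicate 2. Peaks covered 9.56% of the III span in replicate 1 and 8.90% in replicate 2, against 9.15% and 8.68% on I. On II, IV, V and X the covered share ranged between 3.48 and 6.69% in replicate 1 and between 2.89 and 6.28% in replicate 2. The median deposited score on III was 262 in replicate 1 and 257 in replicate 2, against 236 and 239 over the other chromosomes. This score is the authors' own value for each peak, and its scale is not stated. It serves here to order the peaks of a list, and for paired peaks both scores are given. A permutation of 1 chromosome against 5 cannot give an exact p below 0.167, so differences between III and other chromosomes are given as values without a test.

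Along the chromosome the left end was sparse, and the rest was densely bound up to the right end. Each list was counted in bins of 500 kb from the lowest start, 27 of which were full. In replicate 1 the full bins held 11 to 35 peaks, with a median of 28, and in replicate 2 they held 11 to 28, with a median of 24. The first 6 bins, up to position 3014048, held 11 to 17 peaks each in replicate 1 and 11 to 15 in replicate 2. The 21 full bins after them held 18 to 35 and 13 to 28. Thus none of the later bins of replicate 1 was as low as the highest of the first 6, whereas 2 later bins of replicate 2, with 13 peaks each, lay within that range. The boundary at 3 Mb was placed after the counts were seen, and a difference across it follows in part from that choice. Density was 29.0 peaks per Mb in the first 3 Mb of replicate 1 and 56.8 in the remainder, which was 1.96 times as high. In replicate 2 it was 25.3 and 46.8 peaks per Mb, a factor of 1.85.

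**Figure D1:**
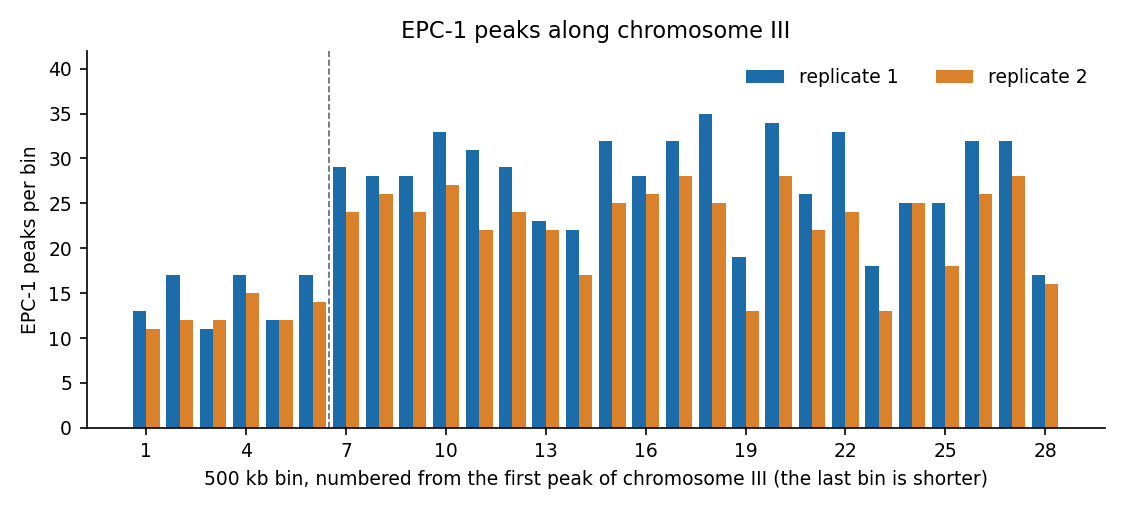
EPC-1 peaks (y axis, number of peaks) in each 500 kb bin of chromosome III (x axis, bin number from the first peak), with 1 bar per replicate; bin 28 is shorter than the others, and the dashed line stands after the first 3 Mb. The first 6 bins hold 11 to 17 peaks in replicate 1 and 11 to 15 in replicate 2, and bins 19 and 23 are the low bins among those that follow.

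The peaks at the sparse end were as wide as elsewhere, and their scores gave no common direction. Median width was 1579 bp in the first 3 Mb and 1580 bp beyond it in replicate 1, and 1725.5 bp and 1704 bp in replicate 2. The median score was 263 against 257 in replicate 1 and 214 against 282 in replicate 2, so the lists differed in sign. Shared peaks, meaning those that overlapped a peak of the other list by at least 1 bp, made up 82.8% of replicate 1 peaks in the first 3 Mb and 80.2% beyond. In replicate 2 these shares were 92.1% and 96.8%. The right end showed no such thinning. In the last, shorter bin there were 17 peaks in replicate 1 and 16 in replicate 2, or 65.9 and 62.0 peaks per Mb, above the mean of the chromosome.

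The emptiest full bins all lay at the left. They ran from 1014049 to 1514048 (11 peaks in replicate 1 and 12 in replicate 2), from 2014049 to 2514048 (12 and 12) and from 14049 to 514048 (13 and 11). Peaks covered 3.86 and 4.29% of the bases in the first of these bins. The densest bin by mean count ran from 9514049 to 10014048 (34 and 28 peaks). After it 4 bins tied at a mean of 30 peaks, from 4514049 to 5014048 (33 and 27), from 8014049 to 8514048 (32 and 28), from 8514049 to 9014048 (35 and 25) and from 13014049 to 13514048 (32 and 28). In the densest bin peaks covered 12.7 and 11.9% of the bases. Further low bins inside the dense part ran from 9014049 to 9514048, with 19 and 13 peaks, and from 11014049 to 11514048, with 18 and 13. The replicates gave similar profiles of peak counts. Counts per bin had a Spearman rho of 0.86 over the 27 full bins, and median scores per bin one of 0.58. These values describe bins that share their animals' stage, the antibody and the authors' processing. Replicate 1 had more peaks in 24 bins, the same number in 2 and fewer in 1, with a median excess of 5 and a largest excess of 10. The number of peaks in a bin was nearly unrelated to the median score of its peaks, with a rho of 0.02 in replicate 1 and -0.11 in replicate 2.

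Of 3 equal parts of the span, the left part held the fewest peaks, and the middle and the right held nearly equal numbers. Replicate 1 had 178 peaks in the left part (25.5%, exact Clopper-Pearson 95% interval 22.3 to 28.9), 265 in the middle (38.0%, 34.4 to 41.7) and 255 in the right part (36.5%, 33.0 to 40.2). Replicate 2 had 157 (27.1%, 23.5 to 30.9), 212 (36.6%, 32.7 to 40.7) and 210 (36.3%, 32.3 to 40.3). These intervals cover counting error only. The mean share of the middle part was 37.3% ± 0.955 (SD, n = 2). Density was 38.8, 57.8 and 55.6 peaks per Mb from left to right in replicate 1, and 34.2, 46.2 and 45.8 in replicate 2. The right part of III had 1.43 times the peaks of the left part in replicate 1 and 1.34 times in replicate 2. On chromosome II this ratio was 1.51 and 1.54, on X 1.18 and 1.19, on IV 0.99 and 0.98, on V 0.82 and 1.03, and on I, the chromosome nearest in density, 0.85 and 0.87. A right side richer than the left was thus seen in both lists on III, II and X.

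**Figure D2:**
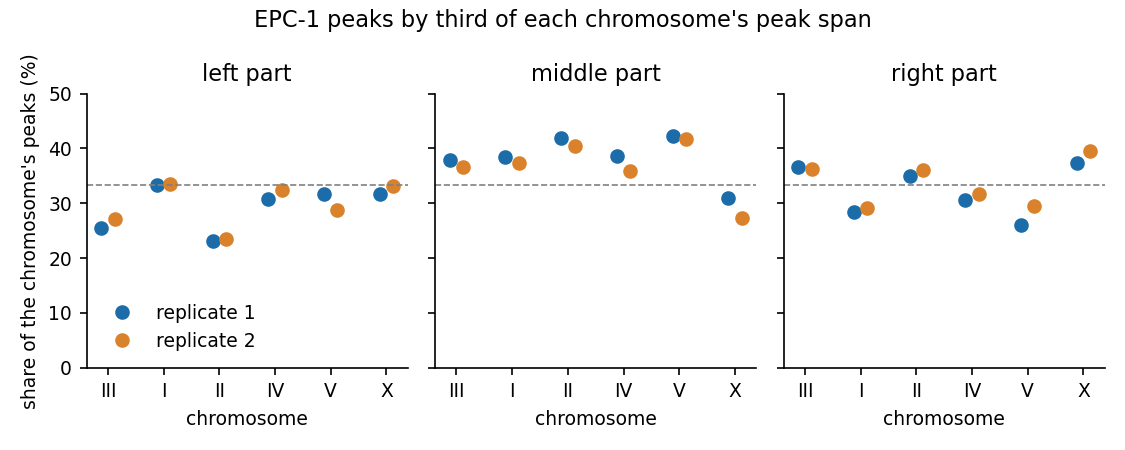
Share of each chromosome's EPC-1 peaks (y axis, percent) in the left, middle and right part of its peak span, for III and then the other chromosomes (x axis), with 1 point per replicate and a dashed line at an even share. On III the left part holds 25.5 and 27.1% of the peaks and the right part 36.5 and 36.3%, whereas on I the left part holds 33.2 and 33.5%.

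The outermost 3 Mb of each chromosome were set beside its whole. The length of 3 Mb was chosen from the counts of III and lies within its left and right parts. These values therefore restate the asymmetry of III and do not add separate support, and the other chromosomes had no such choice made for them. On III the first 3 Mb held 0.57 times the density of the whole chromosome in replicate 1 and 0.60 times in replicate 2, and the last 3 Mb held 1.06 and 1.08 times. On I the first 3 Mb stood at 0.98 times in both lists and the last 3 Mb at 0.87 and 0.90 times. Chromosome II resembled III at its left, at 0.61 and 0.65 times. The first 3 Mb of IV, V and X lay between 0.82 and 1.12 times the density of their chromosome.

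Stretches without any peak were short on III and lay mostly at the left. Over both lists 10 stretches reached 100 kb, 8 of them in the left part, none in the middle part and 2 in the right part. The longest ran from 1627343 to 1776979 (149.6 kb), from 1963020 to 2099687 (137 kb) and from 1285388 to 1412481 (127 kb). All of these lay inside the first 3 Mb. The longest stretch measured 297 kb on I, 320 kb on II, 243 kb on IV, 560 kb on V and 358 kb on X. Stretches of at least 100 kb took up 8.81% of the span of III, against 10.1% of I and 17.5 to 44.1% of the spans of II, IV, V and X. In number, the 10 on III stood beside 9 on I and 19 to 52 on II, IV, V and X, so few such stretches were not particular to III.

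Most III peaks were found in both lists. In replicate 1, 562 of 698 III peaks (80.5%, exact interval 77.4 to 83.4) were shared, against 79.0% over all chromosomes. In replicate 2 it was 557 of 579 (96.2%, 94.3 to 97.6), against 95.1%. Both shares lie near the background of the whole lists. The lists had 1.08 Mb of III in common, equal to 82.5% of bound bases in replicate 1 and 88.6% in replicate 2. Sharing varied from bin to bin in replicate 1, between 64.0 and 96.4% of the peaks of a full bin. In replicate 2, every peak was shared in 14 of the 27 bins, and the lowest bin stood at 83.3%. The middle part of replicate 2 was almost wholly shared, with 210 of 212 peaks, against 150 of 157 in its left part and 197 of 210 in its right part. In replicate 1 the left part had the highest share, at 84.3%, against 79.6% in the middle and 78.8% on the right.

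Unshared peaks were weak and narrow. In replicate 1 the median score was 78.7 over the 136 unshared peaks and 393 over the 562 shared ones, and median width was 1283.5 bp and 1662 bp. In replicate 2 scores of 71.5 (22 unshared peaks) and 282 (shared peaks) went with widths of 1491 bp and 1716 bp. Among III peaks in the lowest score quartile of the whole list, 67 of 173 were shared in replicate 1 (38.7%, 31.4 to 46.4) and 122 of 139 in replicate 2 (87.8%, 81.1 to 92.7). In the highest quartile all 199 and all 161 were shared, with exact intervals from 98.2% and from 97.7% upward. Shares by quartile are given for III alone, so they do not show whether III differs in this from the other chromosomes. Unshared peaks of replicate 1 lay a median of 5.61 kb from the nearest replicate 2 peak, edge to edge, and 20 of them lay within 1 kb of one.

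**Figure D3:**
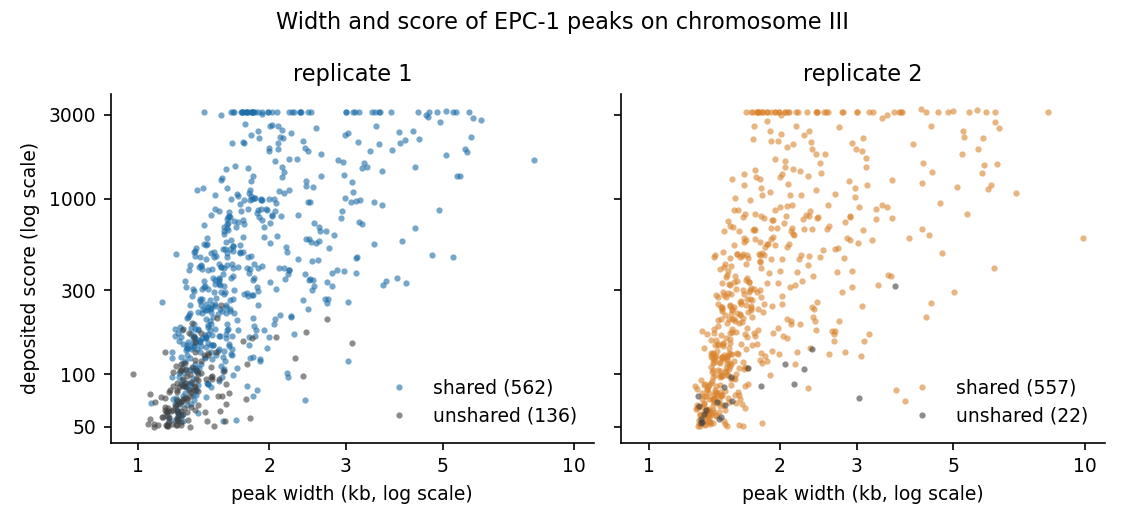
Width (x axis, kb, log scale) and deposited score (y axis, log scale) of every EPC-1 peak on chromosome III in replicate 1 (left) and replicate 2 (right), with unshared peaks in dark grey. Unshared peaks gather among narrow peaks of low score, with medians of 78.7 and 71.5, and the score piles up at 3100 in both lists.

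The unshared III peak with the highest score, 318, belonged to replicate 2 and ran from 2110816 to 2114493, at 8.11 kb from the nearest replicate 1 peak. In replicate 1 the highest unshared scores were 249 (12567620 to 12569170), 208 (1242641 to 1244156), 207 (1924591 to 1927305), 196 (6868703 to 6870033) and 181 (4063234 to 4064501). All of these lay below or near the middle of the replicate 1 scores, the first at percentile 50.9 of the whole list. After its first, replicate 2 had unshared scores of 139 (9615838 to 9618208), 113 (1806693 to 1808747), 108 (12540787 to 12542473) and 107 (1088538 to 1090803). The peak at 9615838 was separated from a replicate 1 peak by 0.129 kb, so its lack of a partner rests on a short gap.

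Paired peaks kept their rank between the lists. Pairing by largest overlap gave 550 pairs on III, with a Spearman rho of 0.93 between scores, and of 0.91 over the 496 pairs below 3100 in both lists. These values describe sites within 2 lists that share an antibody and a caller. Midpoints lay a median of 50.25 bp apart, and 479 pairs (87.1%) lay within 200 bp. Replicate 1 had the higher score in 365 of the 496 pairs (73.6%), with a median ratio of 1.28 (quartiles 0.99 and 1.74). The scale of the score is unknown and may depend on read depth, so a ratio of scores describes the lists and is not a fold difference in binding. Its median was 1.24 in the left part, 1.34 in the middle and 1.21 on the right. Replicate 2 had the wider peak in 367 of 550 pairs (66.7%), by a median of 69 bp (quartiles -40 and 168).

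Some pairs departed further. Of the 550 pairs, 85 had a score more than 2 times higher in replicate 1 and 6 had one more than 2 times higher in replicate 2. The highest ratios toward replicate 1 were 5.43 from 8873278 to 8875098 (286 and 52.5), 4.72 from 8799171 to 8803319 (332 and 70.3) and 4.64 from 11242528 to 11244372 (354 and 76.4). These 3 sites had replicate 1 scores of 286 to 354 and lay toward the low end of replicate 2, whose lowest score on III was 50.7. Toward replicate 2 the highest ratio was 3.66, from 12976145 to 12979794 (847 in replicate 1 and 3100 in replicate 2). It was followed by 3.35 from 12611816 to 12617830 (340 and 1139) and 2.51 from 11463079 to 11464557 (57.9 and 145). At the first and second of these sites 1 replicate 2 peak overlapped 2 replicate 1 peaks, of which only the one with the larger overlap entered the pair. The replicate 1 peak left out of the pair scored 2067 at the first site and 783 at the second, closer to the replicate 2 score than the one that was paired. The 3100 at the first site is a value that many peaks share, so its ratio is not exact.

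Peak width followed the score closely. On III the widths of replicate 1 had a median of 1579.5 bp (quartiles 1348.5 and 2029.75) and those of replicate 2 a median of 1708 bp (1479.5 and 2267.5), against 1552 and 1697 bp over the other chromosomes. Widths ran from 973 to 8103 bp in replicate 1 and from 1278 to 9900 bp in replicate 2. Across peaks, width and score had a rho of 0.75 in replicate 1 and 0.73 in replicate 2. Peaks under 1500 bp had a median score of 108 in replicate 1 (296 peaks) and 80.8 in replicate 2 (160 peaks), and 61.8% and 92.5% of them were shared. At the other end, peaks of 3 kb or more had median scores of 1864 and 1269.6, and 69 of 70 and 73 of 75 were shared.

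Those broad peaks made up 10.03% of the III peaks of replicate 1, against 7.96% over all chromosomes, and 12.95% of those of replicate 2, against 11.6%. The exact intervals on III were 7.90 to 12.5% and 10.3 to 16.0%. The shares over all chromosomes count the III peaks too, and the difference from them was not tested. Broad peaks held 21.7% of the bound bases of III in replicate 1 and 27.2% in replicate 2. They lay in all parts of the chromosome, with 17, 25 and 28 from left to right in replicate 1 and 20, 25 and 30 in replicate 2.

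Shared sites were ordered by the mean width of the paired peaks. The first on III lay near the left end, from 343150 to 353049. A single replicate 2 peak of 9900 bp (score 594) overlapped 2 replicate 1 peaks there, the larger of 5491 bp (1338). Near the right end, a replicate 1 peak of 8103 bp (score 1656) from 13716881 to 13724983 met 2 replicate 2 peaks, the larger of 5082 bp (1162). The others were from 12601740 to 12610279 (4381 and 8256 bp, both at 3100), from 61860 to 68153 (6124 and 6233 bp, scores 2792 and 3100) and from 10715475 to 10721836 (5823 and 6362 bp, 2240 and 2532). Only the last pair and the pair at 61860 had a single peak in each list with similar bounds. At the other 3 sites a wide peak of one list lay over 2 peaks of the other.

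Many peaks share a score of exactly 3100, and 2 III peaks of replicate 1 and 4 of replicate 2 scored above it, up to 3144 and 3223. On III, 49 peaks of replicate 1 (7.02%, against 6.48% over all chromosomes) and 50 peaks of replicate 2 (8.64%, against 7.27%) stood at 3100 or above. All of them had a partner, and 45 pairs stood there in both lists. Such peaks occurred in 22 of the 28 bins in each list, and neighbouring ones were a median of 205 kb apart in replicate 1 and 204 kb in replicate 2. The left part held 17 of 49 in replicate 1 and 17 of 50 in replicate 2, or 9.55 and 10.8% of the peaks there, and the middle part held 12 and 11, or 4.53 and 5.19%. The right part held 20 and 22, or 7.84 and 10.5%. The share in the middle part was thus the lowest in both lists, and the difference between the parts was not tested.

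By mean score percentile, the first shared sites on III were from 12366793 to 12371010 (3100 in replicate 1 and 3223 in replicate 2) and from 4192713 to 4197599 (3100 and 3123). The next in order were tied at 3100 in both lists, and position alone placed first those from 1417254 to 1420968, from 1617755 to 1620552 and from 1823728 to 1825619. Since ties are ordered by position, the place of these 3 sites at the left carries no information. The site at 1617755 lay to the left of the longest empty stretch of III, which began at 1627343. It did not border that stretch, since an unshared replicate 1 peak (1626108 to 1627342, score 67.5) lay between them.

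Spacing on III was close but uneven. Midpoints of neighbouring peaks were a median of 11.4 kb apart in replicate 1 (quartiles 5.49 and 25.9) and 13.7 kb in replicate 2 (6.74 and 31.6), a mean of 12.5 ± 1.61 kb (SD, n = 2). Over the other chromosomes it was 17.1 and 20.8 kb, and on I alone 11.5 and 13.8 kb. Distances on III ran from 1.35 to 151 kb in replicate 1 and from 1.60 to 161 kb in replicate 2. The mean distance, 19.7 and 23.8 kb, was well above the median, since 58 distances in replicate 1 (8.32%) and 70 in replicate 2 (12.1%) exceeded 50 kb. In the first 3 Mb the median distance was 23.2 kb in replicate 1 and 22.5 kb in replicate 2, against 10.7 and 12.8 kb beyond it.

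**Figure D4:**
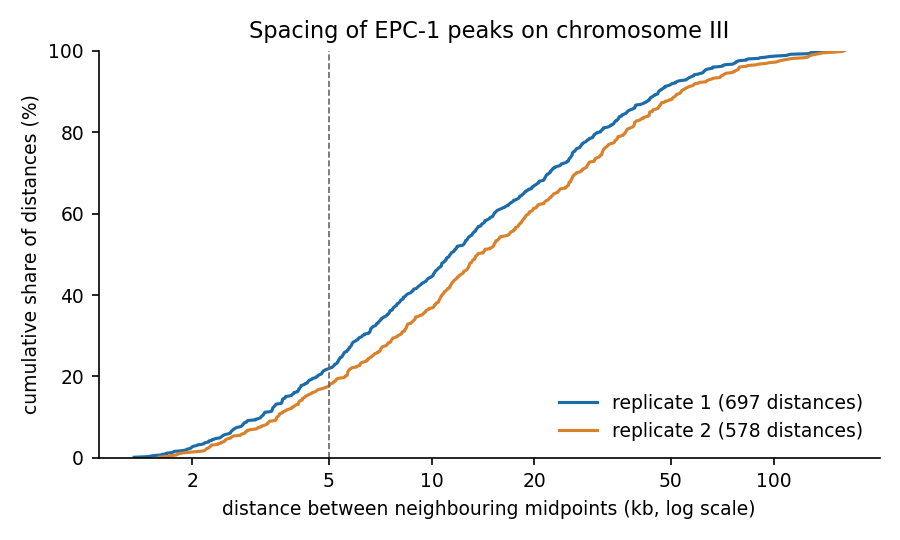
Cumulative share (y axis, percent) of the distances between neighbouring EPC-1 peak midpoints on chromosome III (x axis, kb, log scale), with 1 line per replicate and a dashed line at 5 kb. In replicate 1, 21.8% of distances are within 5 kb and in replicate 2 17.5%, and the medians are 11.4 and 13.7 kb.

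The share of close neighbours on III lay near that of the whole lists. There, 152 of 697 distances in replicate 1 (21.8%, exact interval 18.8 to 25.1) were within 5 kb, against 20.1% over all chromosomes. In replicate 2 it was 101 of 578 (17.5%, 14.5 to 20.8), against 15.8%. Chromosome I had 25.6 and 20.2%. Measured edge to edge, 65 of 697 distances in replicate 1 and 47 of 578 in replicate 2 were under 1 kb. The closest neighbours were separated by 2 bp and 38 bp. These edge counts are given for III alone and are not set against other chromosomes.

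Runs were defined as 3 or more consecutive peaks of a list with every neighbouring distance at most 5 kb. Replicate 1 had 30 runs on III with 93 peaks (13.3%, exact interval 10.9 to 16.1), against 11.0% over all chromosomes. Replicate 2 had 19 runs with 58 peaks (10.02%, 7.69 to 12.8), against 8.22%. The share over all chromosomes counts the III peaks too. Peaks enter runs in groups of 3 or more, whereas the interval treats them as independent, so the difference from that share was not tested. Per 10 Mb there were 21.8 and 13.8 runs on III, 22.6 and 14.6 on I, and 2.84 to 12.5 and 2.27 to 7.22 on the other chromosomes. Nearly all runs were of 3 peaks, 28 of 30 in replicate 1 and 18 of 19 in replicate 2, and the median run was 8.29 and 8.72 kb long. The share of peaks in runs depends on the distance allowed. The mean over both lists was 11.7% ± 2.34 (SD, n = 2) at 5 kb, 2.76% at 3 kb and 38.0% at 10 kb.

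Runs were scarce on the left and most frequent on the right. By midpoint, the left part held 1 of the 30 runs of replicate 1 and 2 of the 19 of replicate 2, the middle part 12 and 6, and the right part 17 and 11. As shares of the peaks in each part, 1.69, 13.6 and 21.2% were in runs from left to right in replicate 1, and 3.82, 8.49 and 16.2% in replicate 2. No peak of the first 3 Mb was in a run in either list. Spacing moved in the same direction, with median distances of 14.9, 11.03 and 10.1 kb from left to right in replicate 1 and 18.1, 14.1 and 11.8 kb in replicate 2, and its part in the number of runs was not tested.

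**Figure D5:**
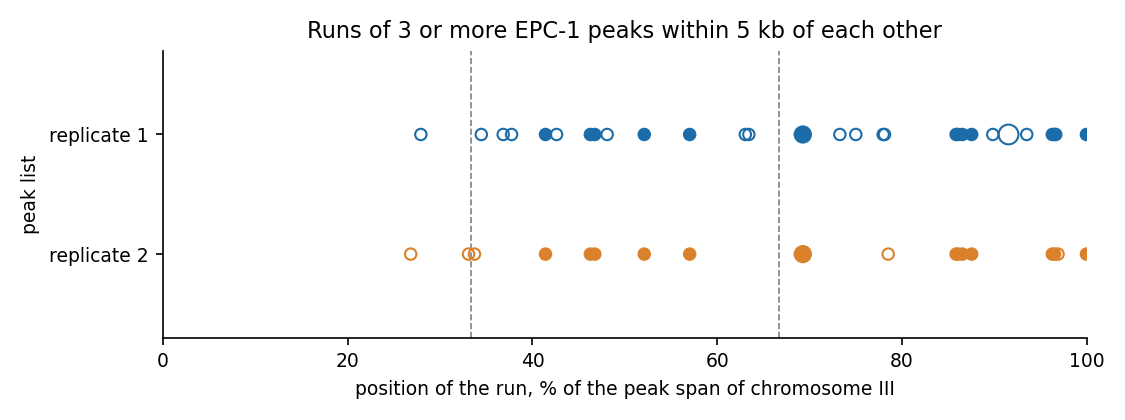
Runs of EPC-1 peaks in replicate 1 (upper row) and replicate 2 (lower row) by position along the peak span of chromosome III (x axis, percent of the span), where larger circles have more peaks, filled circles overlap a run of the other list, open circles do not, and dashed lines divide the 3 parts. The left part holds 1 run of replicate 1 and 2 of replicate 2, and 14 runs of each list overlap a run of the other.

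The replicates marked some of the same runs. Of the runs, 14 of 30 in replicate 1 (46.7%) and 14 of 19 in replicate 2 (73.7%) overlapped a run of the other list. Of the 16 replicate 1 runs without such a counterpart, 9 met 2 replicate 2 peaks, 5 met 1, 1 met 3 and 1 met none. Peaks in runs were not set apart by score in a way common to the lists. Their median score was 340 inside runs and 247 outside in replicate 1, but 215 inside and 269 outside in replicate 2. Their width was the smaller in both lists, at 1494 bp inside runs and 1588 bp outside in replicate 1, and 1662.5 and 1708 bp in replicate 2. The limit of 5 kb between midpoints leaves little room for wide peaks, so a smaller width in runs follows in part from the rule. Sharing was alike, at 79.6 and 80.7% in replicate 1 and 94.8 and 96.4% in replicate 2.

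The run with most peaks in replicate 1 had 5, from 12597153 to 12617443 (20.3 kb), with 76.4% of its bases inside peaks. From left to right its peaks scored 3100, 1931, 3100, 783 and 340. Replicate 2 had 3 peaks there, of 2999, 8256 and 6015 bp, which scored 3100, 3100 and 1139 and stood too far apart, midpoint to midpoint, to count as a run. The bound stretch was common to both lists, and its division into peaks differed.

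A run of 4 peaks was found in both lists at the same place, from 9538266 to 9549410 in replicate 1 (scores 82.5 to 805) and from 9538297 to 9549448 in replicate 2 (50.7 to 1052). A run of 3 from 7178960 to 7184821 in replicate 1 also had its counterpart, from 7178788 to 7184845 in replicate 2. The other runs that the rule named overlapped no run of the other list. They ran from 10092593 to 10097495 in replicate 1 (1 replicate 2 peak), from 4752150 to 4757858 in replicate 1 (2 replicate 2 peaks) and from 3700848 to 3705863 in replicate 2 (2 replicate 1 peaks).

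With 10 kb allowed between midpoints, longer chains appeared. Replicate 1 then had 78 runs on III, of which 8 held 6 or more peaks, and replicate 2 had 54, of which 3 did. The longest held 13 peaks of replicate 1, from 13255865 to 13314509 (58.6 kb), near the right end, with scores of 72.3 to 3100. Of these 13 peaks 11 were shared. The longest of replicate 2 held 7 peaks, all shared, from 4541639 to 4588142 (46.5 kb), with scores of 130 to 3100 and a median of 2184. The left part held the fewest of these runs too, 16 of 78 and 9 of 54, but the contrast was smaller than at 5 kb (1 of 30 and 2 of 19). It also held the fewest peaks, 25.5 and 27.1% of those on III.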

How the data were processed

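Each deposited file lists the binding sites found by the authors in 1 immunoprecipitation, with start, end and a score per peak, in WS190 coordinates per the file headers. Per the submitters' processing notes, BWA was used for alignment. The peaks are named after MACS and the source column names MA2C. The sources used here do not give the settings of the caller, whether it used the input, or the scale of the deposited score. No filter was applied.

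Sharing, pairing (one to one, by largest overlap), bins by midpoint, the 3 equal parts of the span, runs and empty stretches were computed with Python 3.11.15, NumPy 2.4.6, pandas 2.3.3 and SciPy 1.17.1, and figures were drawn with matplotlib 3.10.9. The code was checked on lists with built-in answers. Intervals are exact Clopper-Pearson 95% intervals, which cover counting error only. No test across samples was made. The members, the quantities and the rule for named regions were chosen with earlier results of these data known. That rule takes the first 5 shared sites by mean score percentile and by mean width of the pair, the first 5 unshared peaks of each list by score, the 3 densest and 3 emptiest full bins, the 3 longest empty stretches, the 3 highest score ratios in each direction, and the 5 and 3 runs with most peaks in replicates 1 and 2. Ties were broken by position, and among runs by the smallest mean distance between neighbours. Low bins inside the dense part, the first 3 Mb and the longest runs at 10 kb were singled out after their values were seen.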

Additional observations from a re-analysis of the deposited data

How the results depend on the processing

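Of 18 recomputed means over both lists, 9 moved by less than 1 SD between the replicates and 9 moved by more. Peaks with a score of 100 or more gave 36.0 peaks per Mb, a median width of 1788.25 bp, a median neighbour distance of 17.0 kb and 7.95% of peaks in runs. Shared peaks alone gave a neighbour distance of 14.6 kb and 8.94% in runs, and edge to edge gaps had a median of 10.6 kb. A limit of 3 kb put 2.76% of peaks in runs, and one of 10 kb put 38.0%. Sharing at 50% of both peaks was 77.1% in replicate 1 and 92.9% in replicate 2. With both lists held to the same number of peaks by score, sharing was 90.5% in replicate 1 and 89.6% in replicate 2. Density was then 41.9 and 42.1 peaks per Mb. Lists of equal length are brought close in both measures by that choice, so the likeness of these values is not a result. With either replicate left out, density was 42.1 to 50.7 peaks per Mb, the share of the middle part 36.6 to 38.0%, width 1579.5 to 1708 bp, neighbour distance 11.4 to 13.7 kb and the share in runs 10.02 to 13.3%. With 2 lists these are only the values of the list that remains, so they are no check of the results. The left part held 25.5 to 28.6% of the peaks over both lists with all peaks, peaks of score 100 or more, shared peaks and equal list lengths. Its share was not computed with the trimmed span. No paired analysis was possible because input DNA, the group with the same replicate numbers, has no values here. Since depth is unknown, a weak peak missing from a list does not show that a site was unbound.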

Other observations

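Isolated peaks of chromosome III scored lower than crowded ones in both lists. Peaks whose nearest neighbour was over 20 kb away had a median score of 222 in replicate 1 (85 peaks) and 229 in replicate 2 (92 peaks). Those with a neighbour within 5 kb had medians of 279 (271 peaks) and 290 (182 peaks), and those in between had 265 and 262. Score did not rise steadily with crowding, since peaks in runs had medians of 340 in replicate 1 but 215 in replicate 2, below the isolated peaks. A score of 3100 or more was reached by 3.53 and 4.35% of the isolated peaks, against 8.12 and 9.89% of the crowded ones. Over all chromosomes the share was 6.48 and 7.27%. With 85 and 92 isolated peaks, the low shares rest on few peaks. Widths differed less, at 1547 and 1671.5 bp in isolated peaks against 1578 and 1725.5 bp. These differences were not tested. The parts of III went the other way. The left part had the widest median spacing, 14.9 and 18.1 kb, and the highest share of peaks at 3100 or more, 9.55 and 10.8%.

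The lists also cut some bound stretches differently. On III, 13 replicate 2 peaks each overlapped 2 replicate 1 peaks, and 8 replicate 1 peaks each overlapped 2 replicate 2 peaks. At 7717618 to 7724572 a replicate 2 peak of 6955 bp overlapped replicate 1 peaks that scored 2146 and 54.4, and at 7151024 to 7156713 a peak of 5690 bp overlapped peaks that scored 80.8 and 2578.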
